A study of Mus musculus with 32 samples.

Results

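The Cyp2a and Cyp2b families are neighbouring cytochrome P450 genes of mouse chromosome 7, and the 7 members described here are Cyp2a4, Cyp2a5, Cyp2a12, Cyp2a22, Cyp2b9, Cyp2b10 and Cyp2b13. They were taken by name: every probe of the liver arrays that is not a control and carries a member's name. That gave a probe for 6 of the 7 members, and all 6 were among the 21290 genes tested. No probe carries the name Cyp2a5.

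Liver RNA of male C57/BL6 mice was hybridized to 32 1-colour arrays, 4 in each of 8 groups. C mice ate a standard diet and MCD mice a methionine and choline deficient diet for 3 weeks from the age of 8 weeks, both with saline as vehicle. Mice named C+Fc-GLP-1 or M+Fc-GLP-1 ate the same diets and were injected every 2 days with Fc-GLP-1, a long-acting agonist of the glucagon-like peptide 1 receptor, over the last 2 weeks. The other 4 groups are livers 2 weeks after partial hepatectomy (PH), which removed 70% of the liver, with the same diets continued and, in the study's methods, the same injections. The study's methods give 10 nmol/kg of Fc-GLP-1, whereas part of the array labels gives 4.4 mg/kg per day of an agonist of both the glucagon receptor and the GLP-1 receptor, and the values here do not settle which was used. Source labels of the 4 C+Fc-GLP-1 arrays after PH, unlike those of M+Fc-GLP-1, name Fc-GLP-1 before surgery and a dual agonist after it, so a change of drug in that group cannot be told apart from treatment or time in the comparisons that use it. Before PH, the C and MCD arrays shared a slide, as did those of both treated groups. The arrays of both treated groups after PH also shared one, whereas C and MCD after PH lay on slides of their own, read on another scanner, so that slide and group cannot be told apart in every other comparison.

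Cytochrome P450 enzymes of the CYP2A and CYP2B subfamilies sit in the endoplasmic reticulum of hepatocytes and oxidize drugs, steroids and plant compounds with electrons from P450 reductase. Cyp2b10 is the textbook target of the constitutive androstane receptor CAR, while Cyp2a4, Cyp2b9 and Cyp2b13 are known as more abundant in the liver of female than of male mice, a difference set by the pattern of growth hormone release. Members of such clusters arose by duplication, so a probe for one may also bind the RNA of another.

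Each array probe is a strand of 60 bases, and 2 of the 7 member probes are shown because the question of binding to paralogues turns on their letters, which are all in lower case because no part is singled out.
Cyp2a4, probe A_52_P9703: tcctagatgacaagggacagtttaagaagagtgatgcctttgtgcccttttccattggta
Cyp2b9, probe A_52_P256914: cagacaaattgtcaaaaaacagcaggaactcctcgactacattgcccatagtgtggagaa
Aligned without gaps, no pair of member probes shared more than 25 bases or an unbroken run longer than 8 bases. Against the 55674 other probes of the array, the highest number of matching bases was 39 for A_52_P9703 and 34 for the Cyp2b9 probe, beside a median of 21 for both. The one close match was between the other Cyp2a4 probe, A_55_P2007326, and A_55_P1997585, a probe without a gene name at chr7:27737339-27737398 of mm9, with 52 of 56 overlapping bases the same and a shared run of 31. Both Cyp2a4 probes list 2 RefSeq transcripts in the array annotation, and Cyp2a5 is among them, so the Cyp2a4 signal may hold Cyp2a5 RNA and the 2 genes cannot be told apart here. The other members' probes list 1 transcript each. These are likenesses between probes, and binding to paralogues' RNA was not tested.

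The promoters are shown because the members moved together in several comparisons. Each window holds 300 bases of the RefSeq gene on GRCm38.p6, from 250 before to 50 after the start site, written along the gene's strand. Capitals mark matches to TATAAA, the TATA box, and to AGGTCA, a half-site of nuclear receptors, which reads TGACCT on the opposite strand.
Cyp2b9, chr7:26173159-26173458, + strand: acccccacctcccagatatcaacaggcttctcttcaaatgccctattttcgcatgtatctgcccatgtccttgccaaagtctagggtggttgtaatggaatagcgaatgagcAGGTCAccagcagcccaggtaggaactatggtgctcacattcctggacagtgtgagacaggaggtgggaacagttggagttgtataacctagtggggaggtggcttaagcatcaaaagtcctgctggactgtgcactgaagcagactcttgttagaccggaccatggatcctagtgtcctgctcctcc
Cyp2b13, chr7:26061245-26061544, + strand: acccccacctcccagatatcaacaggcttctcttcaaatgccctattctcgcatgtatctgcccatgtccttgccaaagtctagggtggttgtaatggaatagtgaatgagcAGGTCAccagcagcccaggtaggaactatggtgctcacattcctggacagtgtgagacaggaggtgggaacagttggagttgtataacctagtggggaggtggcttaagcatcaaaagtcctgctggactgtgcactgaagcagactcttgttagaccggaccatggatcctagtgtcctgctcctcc
Cyp2b10, chr7:25897408-25897707, + strand: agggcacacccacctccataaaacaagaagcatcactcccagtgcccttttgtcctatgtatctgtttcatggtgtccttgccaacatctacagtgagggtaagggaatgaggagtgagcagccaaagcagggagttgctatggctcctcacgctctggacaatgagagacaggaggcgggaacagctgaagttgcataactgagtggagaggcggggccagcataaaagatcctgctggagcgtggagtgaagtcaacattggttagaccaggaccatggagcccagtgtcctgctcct
Cyp2a4, chr7:26306942-26307241, + strand: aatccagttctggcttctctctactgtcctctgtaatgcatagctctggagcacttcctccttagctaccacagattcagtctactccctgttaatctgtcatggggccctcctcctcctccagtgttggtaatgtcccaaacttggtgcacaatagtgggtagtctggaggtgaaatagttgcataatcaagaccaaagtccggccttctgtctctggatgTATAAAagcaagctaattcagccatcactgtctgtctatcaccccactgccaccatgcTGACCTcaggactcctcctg
Cyp2a22, chr7:26939337-26939636, - strand: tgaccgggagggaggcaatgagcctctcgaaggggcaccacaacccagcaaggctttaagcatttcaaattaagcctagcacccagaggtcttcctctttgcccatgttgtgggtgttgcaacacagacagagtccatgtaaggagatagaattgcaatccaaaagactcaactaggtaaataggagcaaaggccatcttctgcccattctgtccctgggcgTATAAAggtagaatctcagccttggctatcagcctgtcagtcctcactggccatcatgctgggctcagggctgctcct
Cyp2a12, chr7:27028840-27029139, + strand: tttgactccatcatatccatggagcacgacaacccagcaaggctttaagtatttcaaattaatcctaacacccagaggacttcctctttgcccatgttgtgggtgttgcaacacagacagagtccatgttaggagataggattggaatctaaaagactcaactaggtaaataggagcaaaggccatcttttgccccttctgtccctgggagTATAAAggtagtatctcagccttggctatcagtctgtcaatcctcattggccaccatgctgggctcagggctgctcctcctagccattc
The Cyp2b9 and Cyp2b13 windows were the same at 298 of 300 bases (99.3%), apart from T48C and C104T, counted from the first base of the window with the Cyp2b9 base written first. The Cyp2b10 window matched either of them at 230 of 314 aligned positions (73.2%). The Cyp2a12 and Cyp2a22 windows matched at 262 of 311 positions (84.2%), and Cyp2a4 and Cyp2a5 at 294 of 301 (97.7%). AGGTCA began 138 bases before the start site in Cyp2b9 and Cyp2b13 and did not occur in the Cyp2b10 window. On the opposite strand it lay at position 31 in Cyp2a4 and 30 in Cyp2a5. TATAAA began at position -28 in Cyp2a4, -29 in Cyp2a5, -39 in Cyp2a12 and -28 in Cyp2a22, and in no Cyp2b window. Searched on both strands of 32851 RefSeq promoter windows, TATAAA occurred in 13.6% and AGGTCA in 16.3%. The other motifs searched, AGTTCA (14.0% of windows), TTCNNNGAA for STAT5 (8.3%) and TTGCNNCAA (2.08%), had no match in any member's window. TTGCNNCAA was meant for C/EBP but differs from its usual site, so whether the windows hold C/EBP sites was not tested. No motif overlapped another in these windows, and a match of letters is not a measured binding site.

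**Figure D1:**
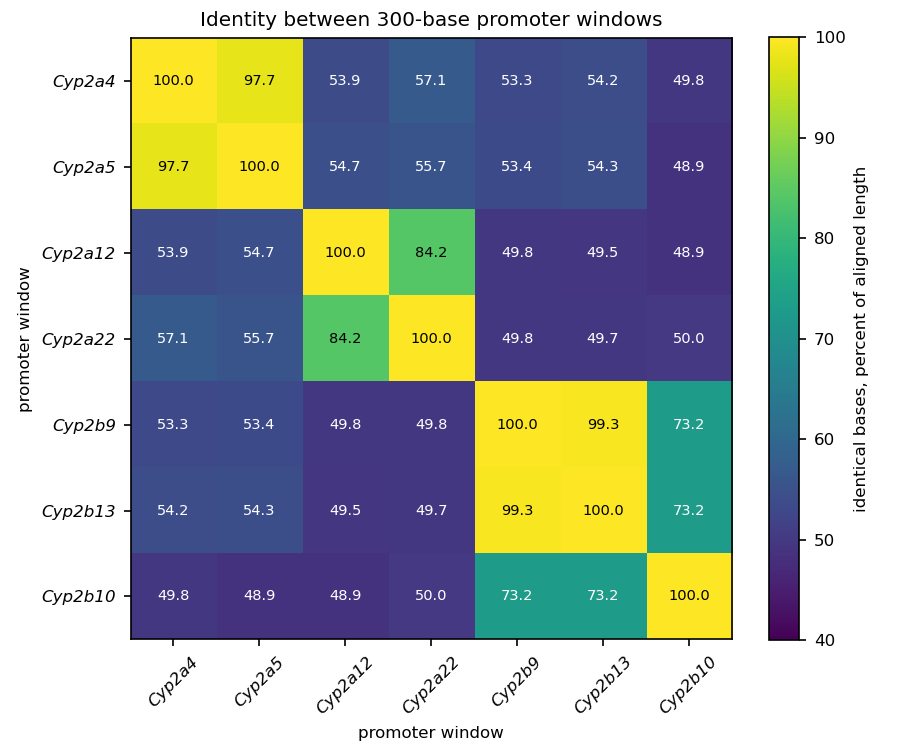
Identity between the 300-base promoter windows of the 7 members, as the percent of aligned positions with the same base, from dark (low) to bright (high). Cyp2b9 and Cyp2b13 stood at 99.3%, Cyp2a4 and Cyp2a5 at 97.7%, Cyp2a12 and Cyp2a22 at 84.2%.

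Values below are log2 intensities minus the array's 75th percentile, so a probe at 0 is as bright as that percentile. They describe each probe across arrays and do not rank one gene against another. The 75th percentile itself was an intensity between 209 and 778 per array, and between 20177 and 38492 probes per array were well above background by the scanner software's call. All 8 hepatocyte markers listed were measured, with the Alb probe the brightest. Of 5 genes listed as markers of tissues other than liver, Fabp2 and Ins2 were well above background on 32 of 32 arrays, Vil1 on 25, Umod on 8 and Ckm on 0. In whole-liver RNA, fewer cells of a type and less RNA per cell cannot be told apart. With 4 arrays a group, their number limits the precision.

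On the MCD diet before PH Cyp2b9, Cyp2b13 and Cyp2a22 went from dim or undetected signals to clear ones, and Cyp2b10 and Cyp2a4, measured on every C array, to higher ones. The comparison of MCD with C mice asks what the diet alone does. In it 5 of 6 tested members passed an adjusted p of 0.05, all 5 higher, where 26.3% of all tested genes passed and 10.9% were higher. Cyp2a22, Cyp2b9 and Cyp2b13 passed the filter on dim probes only through groups on the MCD diet. They therefore had to differ from the groups on the standard diet. The count of members and the adjusted p of these 3 are descriptions that support nothing further, here and in the 3 other diet comparisons.

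Cyp2b10, the CAR target, read 3.23, 3.76, -0.48 and 2.84 in C replicates 1 to 4 and 5.73, 5.84, 6.25 and 5.4 in MCD replicates 1 to 4. All MCD arrays lay above all C arrays, and C replicate 3 was far below the rest of its group. The change was 3.47 ± 0.66 (SE, n = 4 and 4), or 11.1-fold, with an adjusted p of 0.000367, and without C replicate 3 it was 2.53 with an adjusted p of 0.00189. It ranked 38 from the highest among 17454 genes above background on all arrays of both groups.

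Cyp2b9, a female-predominant P450, read -2.11, -2.4, -6.41 and -4.25 in C mice, where only replicates 1 and 2 were well above background, and 2.43, 1.71, 1.88 and 1.42 in MCD mice. The groups were apart, and C replicate 3, the lowest for Cyp2b10, was also the lowest here. The change was 5.65 ± 0.78, or 50.3-fold against a C mean that only 2 of 4 arrays measured above background, with an adjusted p of 6.31e-06. It was 4.78 without C replicate 3. Cyp2b13, also female-predominant, read -5.96, -6.13, -5.72 and -5.15 in C mice, none well above background, and 1.38, 1.24, 1.57 and 1.26 in MCD mice. It was a signal present on every MCD array and on no C array. Where no array of a group was well above background, the fold is given as a bound, taken on each of that group's arrays against the dimmest signal that the software called well above background, or against the probe's own value where that was higher. On that scale Cyp2b13 was at least 76.2-fold higher, with an adjusted p of 6.94e-15. For these dim probes the size depended on the processing, with background correction and normalization changed together: after normexp and quantile normalization the log2 changes were 3.57 for Cyp2b9 and 3.92 for Cyp2b13, and in the authors' values 3.4 and 3.74, all with adjusted p under the threshold, so the bound holds only for the processing used here.

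Cyp2a4, a steroid hydroxylase, read 7.81, 7.56, 7.52 and 7.63 in C mice and 9.04, 9.39, 8.98 and 9 in MCD mice with its brighter probe, A_55_P2007326. The groups were apart by more than their spread. It rose by 1.47 ± 0.29, or 2.78-fold, with an adjusted p of 0.000457, and its other probe, A_52_P9703, gave 6.62, 5.69, 5.71 and 5.67 in C mice, 8.45, 8.41, 8.01 and 8.29 in MCD mice, and a change of 2.37. Cyp2a22, whose substrates are little known, read -4.53, -3.4, -4.77 and -3.99 in C mice, with replicate 2 alone above background, and 1.86, 1.93, 1.53 and 1.97 in MCD mice. Its MCD arrays lay within a narrow band, far above every C array. The change was 6 ± 0.52, with an adjusted p of 5.56e-09, or 63.8-fold against a C mean that 1 of 4 arrays measured above background, and it was 4.34 after normexp and quantile normalization and 4.25 in the authors' values.

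Cyp2a12, a hydroxylase of testosterone, was bright in every group and did not pass the test. It read 6.05, 7.32, 8.14 and 6.38 in C mice and 7.41, 7.68, 7.73 and 7.62 in MCD mice. The C values were spread around the narrow MCD band. The difference was 0.64 with an adjusted p of 0.317, but it passed after normexp and quantile normalization, at 1.5 with an adjusted p of 0.0167 where 23.9% of all genes passed, and in the authors' values, at 1.54 with an adjusted p of 0.0341 where 22.2% passed. Centring on the array median instead of the 75th percentile moved the median change of all genes from -0.123 to 0.244 in this comparison, and the directions of the 6 members stayed as given.

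**Figure D2:**
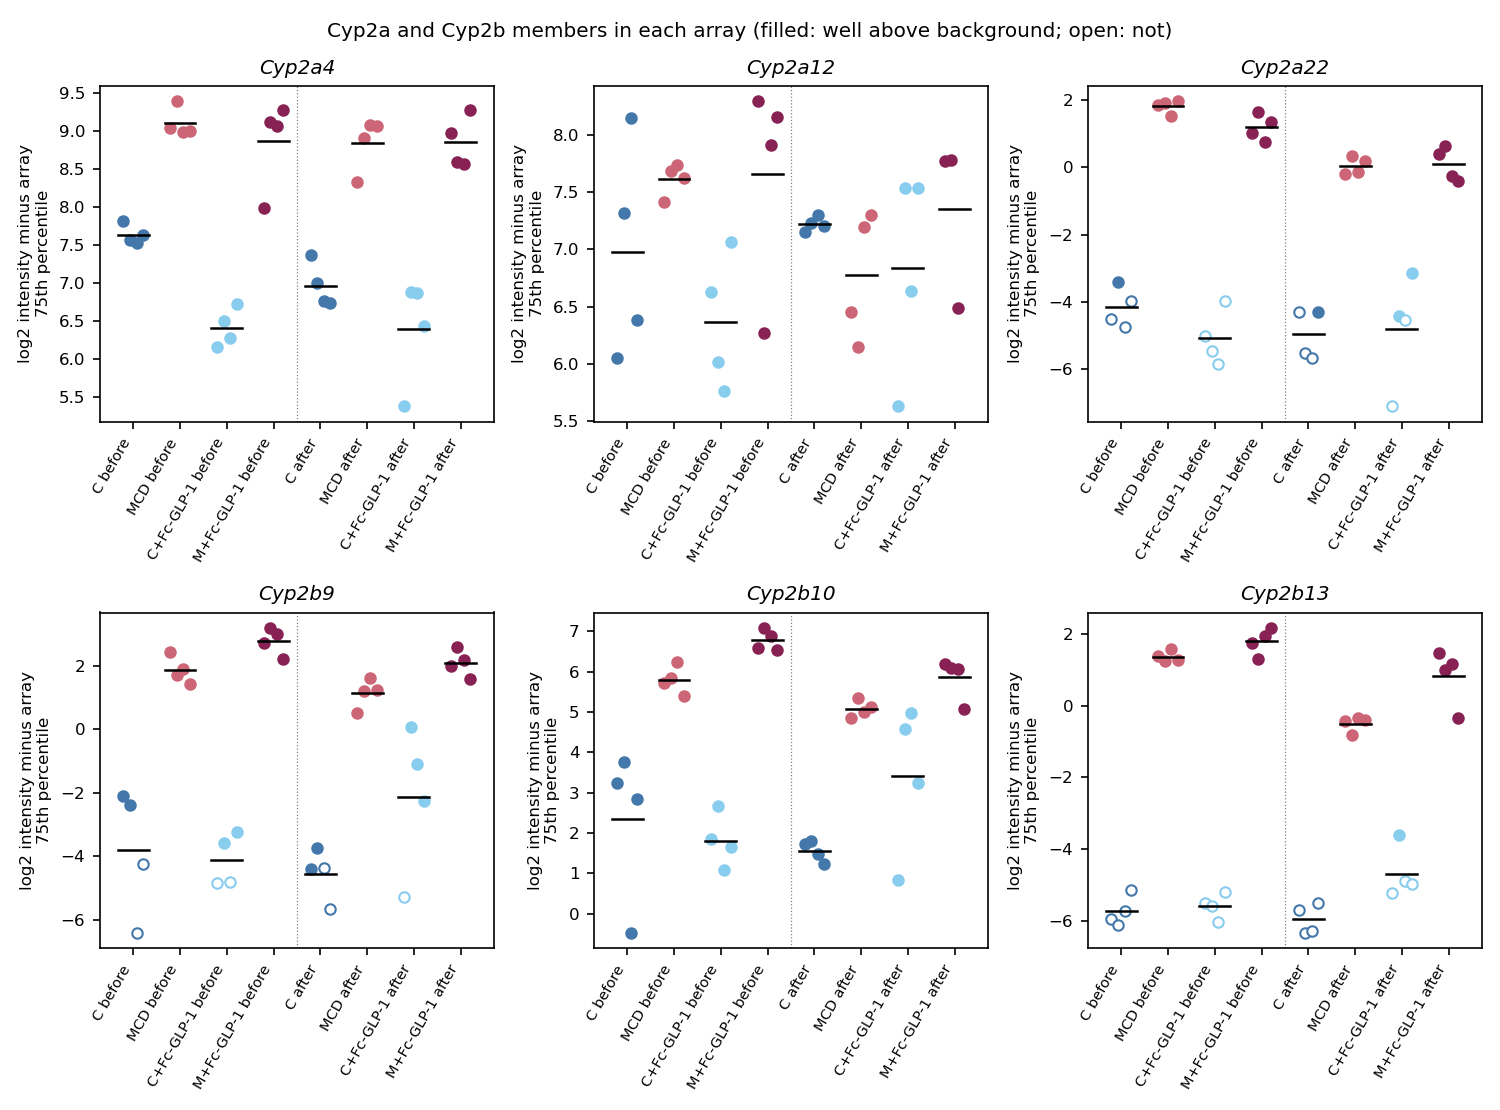
Log2 intensity minus the array's 75th percentile of each tested member on all 32 arrays, by group, with filled points well above background, open points not, and bars at group means. Cyp2b13 was at -5.15 or below on the C arrays before PH and at 1.24 or above on the MCD arrays, whereas the Cyp2a12 groups overlap.

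Under Fc-GLP-1 before PH, setting M+Fc-GLP-1 beside C+Fc-GLP-1 mice asks for the diet's effect in treated mice. The same direction was seen: 5 of 6 tested members passed, all 5 higher, where 10.4% of all tested genes passed and 5.37% were higher, with Cyp2a22, Cyp2b9 and Cyp2b13 again bound to differ by the filter. Cyp2b10 read 1.84, 2.68, 1.07 and 1.65 in C+Fc-GLP-1 and 6.59, 7.09, 6.88 and 6.54 in M+Fc-GLP-1 mice. The groups were apart by several times their spread. It rose by 4.96 ± 0.66, or 31.2-fold, with an adjusted p of 7.67e-06, and ranked 8 from the highest among 14426 genes above background on all arrays of both groups. Cyp2b9 read -4.83, -3.57, -4.8 and -3.24, with replicates 2 and 4 above background, and then 2.72, 3.19, 3 and 2.22. Cyp2b13 read -5.52, -5.6, -6.03 and -5.19, none above background, and then 1.75, 1.3, 1.93 and 2.17. For both genes the M+Fc-GLP-1 arrays all lay above the C+Fc-GLP-1 arrays. The change was 6.89 (adjusted p 5.67e-07) for Cyp2b9, which 2 of 4 C+Fc-GLP-1 arrays measured above background, and at least 82.1-fold (adjusted p 2.55e-15) for Cyp2b13. After normexp and quantile normalization the log2 changes were 4.97 and 4.06, and in the authors' values 4.81 and 3.89.

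Cyp2a4 read 6.15, 6.49, 6.27 and 6.72 in C+Fc-GLP-1 mice before PH and 7.99, 9.12, 9.07 and 9.28 in M+Fc-GLP-1 mice. M+Fc-GLP-1 replicate 1 was the lowest of its group but above every C+Fc-GLP-1 array. The rise was 2.46 ± 0.29, or 5.49-fold, with an adjusted p of 9.82e-07, and 2.64 with the second probe. Cyp2a22 read -5.01, -5.48, -5.86 and -3.99, none above background, and then 1.01, 1.64, 0.77 and 1.34. It was at least 50.4-fold higher (adjusted p 3.34e-09), with a fitted log2 change of 6.27 that was 3.46 after normexp and quantile normalization and 3.31 in the authors' values. Cyp2a12 read 6.63, 6.02, 5.76 and 7.06 in C+Fc-GLP-1 and 8.29, 6.27, 7.91 and 8.15 in M+Fc-GLP-1 mice, and M+Fc-GLP-1 replicate 2 fell among the C+Fc-GLP-1 values. Its difference of 1.29 had an adjusted p of 0.0719, and without that array it was 1.75 with an adjusted p of 0.0114.

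**Figure D3:**
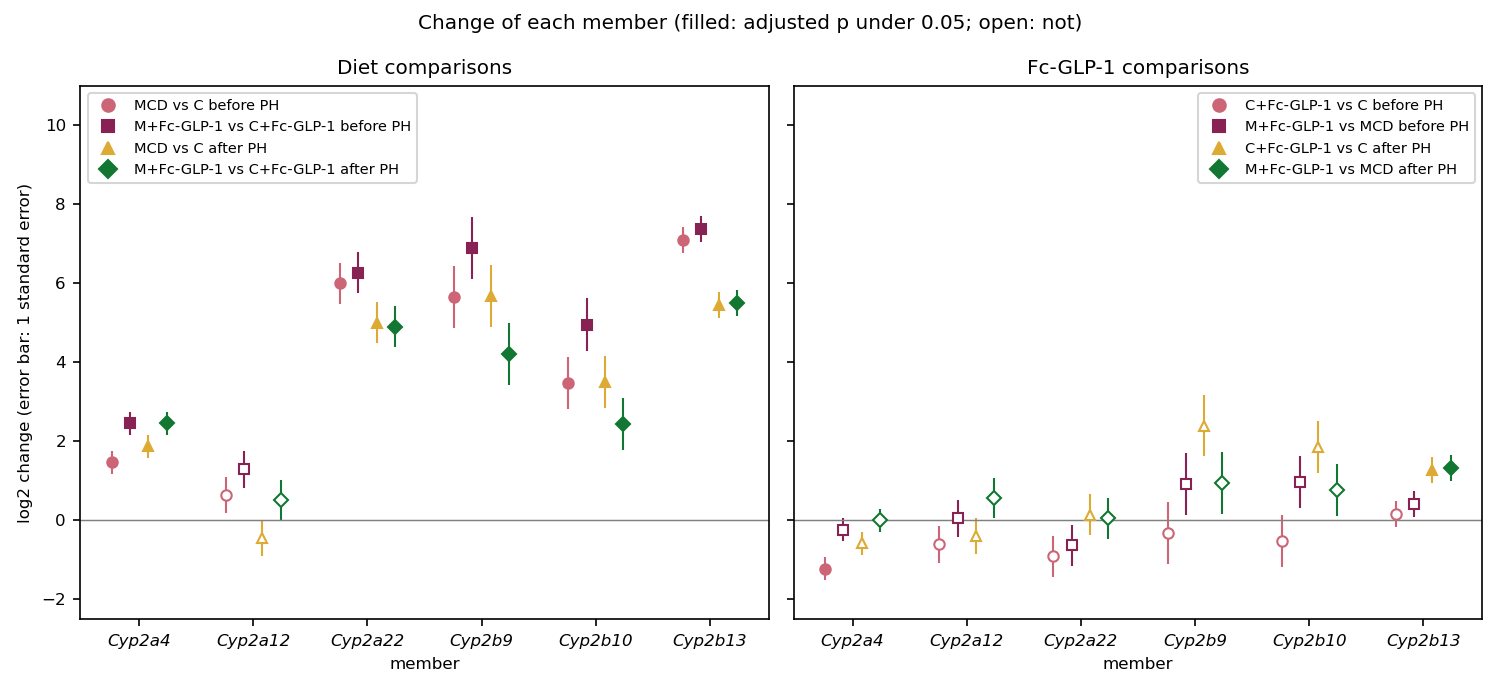
Fitted log2 change of each tested member in the 4 diet comparisons (left) and the 4 Fc-GLP-1 comparisons (right), with error bars of 1 standard error, filled where the adjusted p was under 0.05 and open where not. In the left panel Cyp2b10 lies between 2.44 and 4.96 and Cyp2a4 between 1.47 and 2.46. Fitted values of Cyp2b13 and Cyp2a22 stand there also where the text gives a bound or no size.

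After PH the same 5 members were higher on the MCD diet, both without and with treatment. In MCD against C mice after PH, on slides of their own, 5 of 6 tested members passed, all 5 higher, where 12.2% of all tested genes passed and 6.07% were higher, and 3 of the 5 had passed the filter only through groups on the MCD diet. Cyp2b10 read 1.73, 1.8, 1.48 and 1.24 in C mice and 4.84, 5.34, 4.99 and 5.12 in MCD mice. Both groups were tight and far apart, with a rise of 3.51 ± 0.66, or 11.4-fold (adjusted p 0.000672). Cyp2a4 read 7.37, 6.99, 6.76 and 6.73 and then 8.33, 8.9, 9.08 and 9.06. Again no array overlapped, and the rise was 1.88, or 3.68-fold (adjusted p 5.18e-05), and 2.58 with the second probe. Cyp2b9 rose by 5.68 (adjusted p 1.01e-05), with 2 of 4 C arrays above background, and Cyp2a22 by 5 (adjusted p 1.66e-07), with 1 of 4. Cyp2b13, on 0 of 4 C arrays above background, was at least 21.1-fold higher (adjusted p 8.07e-12). Normexp and quantile normalization gave 3.24, 2.6 and 2.15 for Cyp2b9, Cyp2a22 and Cyp2b13, and the authors' values 3.47, 2.88 and 2.43. Cyp2a12 read between 7.15 and 7.3 in C and between 6.15 and 7.3 in MCD mice, a difference of -0.45 with an adjusted p of 0.592. C replicate 1 stood apart in markers of other cells: their summed level, with 1 as the array's 75th percentile, was 51.8 for biliary markers (3.29 to 7.22 on the other C arrays), 24.9 for stellate cells (3.95 to 7.1) and 414 for macrophages (114 to 264), and hepatocyte markers summed to 2080 (3050 to 4210). The number of members called was 5 also without that array.

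Among treated mice after PH, 5 of 6 tested members passed, all 5 higher, where 12.8% of all tested genes passed and 6.19% were higher, with the same 3 members bound to differ by the filter. Here the treated controls varied. Cyp2b10 read 0.84, 4.59, 4.98 and 3.24 in C+Fc-GLP-1 and 6.2, 6.1, 6.06 and 5.07 in M+Fc-GLP-1 mice. Cyp2b9 read -5.28, 0.07, -1.1 and -2.25 and then 1.98, 2.58, 2.17 and 1.57. C+Fc-GLP-1 replicate 1 was the lowest for both, and M+Fc-GLP-1 arrays still lay above all of that group. That array also stood apart in markers of other cells, with sums of 70.6 for biliary markers (6.27 to 14.5 on the other 3), 17.8 for stellate cells (5.34 to 6.74), 47.4 for neutrophils (6.86 to 15.3) and 315 for macrophages (151 to 195). In M+Fc-GLP-1 mice, replicate 4, the lowest for both genes, had a biliary sum of 61.3 (4.78 to 5.92 on the other 3). The part of these cells in the values was not tested. Cyp2b10 rose by 2.44 ± 0.66, or 5.43-fold, with an adjusted p of 0.0135. This call was lost without C+Fc-GLP-1 replicate 1, at 1.58 with an adjusted p of 0.0833, and in a fit of only the arrays compared, with an adjusted p of 0.0706. Cyp2b9 rose by 4.22 (adjusted p 0.000383, 3 of 4 C+Fc-GLP-1 arrays above background), with 3.17 without C+Fc-GLP-1 replicate 1 and 4.96 without replicate 2 of that group.

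Cyp2b13 read -5.24, -3.62, -4.9 and -4.99 in C+Fc-GLP-1 after PH, with replicate 2 alone above background, and 1.46, 0.99, 1.17 and -0.35 in M+Fc-GLP-1 mice. The groups were apart, and the rise was 5.5 (adjusted p 6.37e-12). Cyp2a22 read -7.12, -4.43, -4.54 and -3.16, with replicates 2 and 4 above background, and then 0.41, 0.65, -0.27 and -0.42. It rose by 4.9 (adjusted p 2.32e-07), with 4.13 without C+Fc-GLP-1 replicate 1. Normexp and quantile normalization gave 2.95 for Cyp2b13, 2.32 for Cyp2a22 and 3.17 for Cyp2b9, and the authors' values 3.14, 2.61 and 3.19. Cyp2a4 read 5.37, 6.88, 6.87 and 6.43 and then 8.97, 8.59, 8.56 and 9.27, and rose by 2.46, or 5.5-fold (adjusted p 8.86e-07), and by 2.8 with the second probe. Cyp2a12 differed by 0.51 with an adjusted p of 0.578, from 3 M+Fc-GLP-1 arrays, since the software marked its spot on replicate 1 as an outlier.

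Whether the diet's effect depended on treatment or time was tested as a difference of differences. For diet by Fc-GLP-1 before PH, limma called 0 of 6 members, with 1 at an unadjusted p under 0.05, where 6.13% of all tested genes passed. Cyp2a4 differed by 0.98 (adjusted p 0.142) and Cyp2b10 by 1.5 (adjusted p 0.338). With an array left out, the Cyp2b10 value ran from 1.02 to 2.43. Cyp2a22 differed by 0.28 with an adjusted p of 0.854, and was called in the other direction after normexp and quantile normalization, at -0.87 with an adjusted p of 0.048 where 2.51% of all genes passed, and 0 of 4 C+Fc-GLP-1 arrays measured it above background. Centring on the array median moved the median of all genes from 0.153 to -0.472 in this test and gave -0.34 for Cyp2a22, and the authors' values gave -0.94. For diet by time under Fc-GLP-1, limma called 0 of 6 members, with 3 at an unadjusted p under 0.05, where 0.0939% of all tested genes passed. Cyp2b9 differed by -2.67 (adjusted p 0.428) and Cyp2b10 by -2.52 (adjusted p 0.357), and Cyp2b13, near background in C+Fc-GLP-1 mice, had an adjusted p of 0.125. A smaller effect after PH in treated mice was therefore not shown for any of them.

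Between treated and untreated mice of the same diet few members differed, and these calls were fragile. The groups also lay on different slides, which cannot be told apart from the treatment. In C+Fc-GLP-1 against C mice before PH, 1 of 6 tested members passed, where 2.08% of all tested genes passed. That was Cyp2a4, which fell by 1.22 on the log2 scale, with every C+Fc-GLP-1 array, at 6.15 to 6.72, below every C array, at 7.52 to 7.81 (adjusted p 0.0258), and its second probe fell by 1.27. The call was lost without C replicate 1 (-1.16, adjusted p 0.0656) and without C+Fc-GLP-1 replicate 1 (-1.14, adjusted p 0.0593) or replicate 3 (-1.18, adjusted p 0.0602). It was also lost with centring on the array median (-0.92, adjusted p 0.0889), which moved the median of all genes from -0.041 to 0.263, and in a fit of only the arrays compared (adjusted p 0.0667). No marker of any cell type listed was called in this comparison.

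In M+Fc-GLP-1 against MCD mice before PH, limma called 0 of 6 members, with 0 at an unadjusted p under 0.05, where 7.21% of all tested genes passed. Cyp2b10 differed by 0.97 (adjusted p 0.387), with all 4 M+Fc-GLP-1 arrays above all 4 MCD arrays, and passed in a fit of only the arrays compared (adjusted p 0.044). After normexp and quantile normalization 3 members passed, where 12.5% of all genes did. These were Cyp2a4, -0.24 as fitted and -1.38 then, Cyp2a22, -0.63 and then -1.02, and Cyp2b9, 0.92 and then 1.28. The authors' values gave -1.42, -1.02 and 1.3, all 3 called, where 11.1% of all genes passed. Without M+Fc-GLP-1 replicate 1 the Cyp2a4 difference was 0.05. Its second probe gave -1, and centring on the array median moved the median of all genes from 0.102 to -0.218. Of the markers, 4 of 6 for macrophages were lower (median -1.68), 2 of 5 for neutrophils were lower and 1 higher (median -2.55), and 1 of 3 for tissues other than liver was higher.

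After PH, C+Fc-GLP-1 against C mice gave 1 of 6 members past the threshold, where 2.05% of all tested genes passed. Cyp2b13 had 1 of 4 C+Fc-GLP-1 arrays and 0 of 4 C arrays above background, and read -5.7, -6.34, -6.28 and -5.52 in C mice, all below the C+Fc-GLP-1 arrays. The adjusted p was 0.0412, but with both groups near background no size is given and no rise was shown. The call was lost without C replicate 2 (adjusted p 0.132) or 3 (adjusted p 0.118) and without C+Fc-GLP-1 replicate 2 (adjusted p 0.163) or 3 (adjusted p 0.0721). It was also lost after normexp and quantile normalization, in the authors' values, with centring on the array median (adjusted p 0.0554), with no filter on dim probes (adjusted p 0.0864), in a fit of only the arrays compared (adjusted p 0.146) and with the replicate number as a block (adjusted p 0.0559). Cyp2b10 and Cyp2b9 overlapped between these groups and did not pass, at 1.85 (adjusted p 0.152) and 2.4 (adjusted p 0.104). Without C+Fc-GLP-1 replicate 1 both did, at 2.71 (adjusted p 0.0207) and 3.45 (adjusted p 0.011), and this is the array that stood apart in biliary and stellate cell markers. No marker of any cell type listed was called in this comparison.

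When M+Fc-GLP-1 mice were set against MCD mice after PH, 1 of 6 tested members was higher, where 6.45% of all tested genes passed. Cyp2b13 read -0.44, -0.81, -0.35 and -0.41 in MCD mice, and M+Fc-GLP-1 replicate 4, at -0.35, lay at the top of that range while the other M+Fc-GLP-1 arrays were at 0.99 or above. It rose by 1.32 ± 0.33, or 2.49-fold, with an adjusted p of 0.0169. The call was lost without MCD replicate 2 (1.22, adjusted p 0.0604), without M+Fc-GLP-1 replicate 1 (1.1, adjusted p 0.0722) or 3 (1.2, adjusted p 0.052), and in a fit of only the arrays compared (adjusted p 0.0727). Markers moved with it: 4 of 5 for neutrophils were lower (median -3.59), with sums of 49.2, 108, 106 and 149 in MCD and 9.71, 9.43, 38 and 6.91 in M+Fc-GLP-1 mice. Of the others, 1 of 6 macrophage, 1 of 5 endothelial and 1 of 3 markers of tissues other than liver were lower and 1 of 5 biliary markers was higher. Their part in the Cyp2b13 change was not tested.

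Livers after PH were compared with livers of the same diet and treatment before PH. For the treated groups, a supplementary legend of the study says that the earlier samples are the liver taken out at surgery and come from the same group of mice. No label links single arrays to a mouse, and the arrays were treated as separate. In MCD mice 2 of 6 tested members were lower, where 9.33% of all tested genes passed. Cyp2b13 fell by 1.87 on the log2 scale, from between 1.24 and 1.57 to between -0.81 and -0.35 (adjusted p 0.000701). Cyp2a22 fell by 1.78, from between 1.53 and 1.97 to between -0.21 and 0.34 (adjusted p 0.0281). The groups did not overlap for either gene. The Cyp2a22 call was lost without MCD replicate 1 (-1.76, adjusted p 0.0577), 2 (-1.74, adjusted p 0.0646) or 4 (-1.73, adjusted p 0.0655) before PH and without replicate 1 (-1.69, adjusted p 0.0701) or 3 (-1.72, adjusted p 0.0645) after PH. Centring on the array median gave calls for both, at -1.96 and -1.87, with the median of all genes at -0.12 and 8.28% of them called. Markers moved here too: 3 of 5 for neutrophils were higher (median 3.32), with sums of 16.9, 4.25, 15 and 21.8 before and 49.2, 108, 106 and 149 after PH. Of 5 stellate cell markers 2 were lower, of 4 T and NK cell markers 2 were higher and 1 lower, 1 of 5 biliary markers was lower, and 1 of 5 endothelial and 1 of 3 markers of tissues other than liver were higher, while 0 of 6 macrophage markers were called. Their part in the fall of the 2 members was not tested.

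In C mice after against before PH, limma called 0 of 6 members, with 1 at an unadjusted p under 0.05, where 13.8% of all tested genes passed. Cyp2b10 differed by -0.78 (adjusted p 0.457), and without C replicate 3 before PH it passed, at -1.71 (adjusted p 0.0443). Cyp2a12 differed by 0.25 (adjusted p 0.76), passed after normexp and quantile normalization at 1.34 (adjusted p 0.0476) where 13.9% of all genes did, and was -0.06 without C replicate 1 before PH. All 6 macrophage and 3 of 5 neutrophil markers were higher, with 1 of 5 stellate cell markers, and 1 of 8 hepatocyte markers was lower. In C+Fc-GLP-1 mice limma called 0 of 6, with 3 at an unadjusted p under 0.05, where 0.831% of all tested genes passed. Cyp2b9 differed by 1.97 (adjusted p 0.216) and Cyp2b10 by 1.6 (adjusted p 0.244), and Cyp2b13, near background in both groups, had an adjusted p of 0.189. With an array left out, the difference ran from 1.23 to 3.01 for Cyp2b9 and from 1.08 to 2.46 for Cyp2b10. Of the markers, 1 of 4 for T and NK cells was higher. In M+Fc-GLP-1 mice limma called 0 of 6, with 2 at an unadjusted p under 0.05, where 1.71% of all tested genes passed. After normexp and quantile normalization 2 members passed there, Cyp2a22 at -0.96 and Cyp2b13 at -0.88, where 2.93% of all genes passed. Of the markers, 2 of 5 for neutrophils were higher (median 1.64) and 1 of 5 endothelial markers was lower.

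Over all arrays, 5 members moved together and Cyp2a12 followed them less closely. Pearson's r over 32 arrays was 0.975 between Cyp2b9 and Cyp2b10, 0.934 between Cyp2b9 and Cyp2b13, 0.956 between Cyp2a22 and Cyp2b13 and 0.92 between Cyp2a4 and Cyp2a22. Cyp2a12 had r between 0.342 and 0.458 with the other members over 31 arrays. These arrays share groups and diets, so r is a description. After group means were taken off, r was 0.88 between Cyp2b9 and Cyp2b10, 0.207 between Cyp2b9 and Cyp2b13 and 0.339 between Cyp2a22 and Cyp2b13. Cyp2a12 then had r of 0.52 with Cyp2b13 and 0.382 with Cyp2a22, so within groups it did not stand apart from these 2, and -0.0121 to 0.105 with the other 3. Thus Cyp2b9 and Cyp2b10 were high or low on the same arrays within a group, as on C replicate 3 before PH and C+Fc-GLP-1 replicate 1 after PH, while Cyp2b13 was near background on those arrays.

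Whether the Cyp2b genes changed by unequal amounts was tested on the difference between 2 probes within each array, with a two-sided exact permutation test of 4 against 4 arrays, which has 70 regroupings and a smallest possible p of 0.0286. The 12 tests run were adjusted together, and 0 passed the threshold. From C to MCD before PH, Cyp2b9 minus Cyp2b10 moved by 2.19 (exact p 0.0286, the smallest possible, adjusted 0.0571). From C+Fc-GLP-1 to M+Fc-GLP-1 it moved by 1.93 before PH and 1.78 after PH, each with the same exact p and adjusted p. Differences with Cyp2b13 are not given for these 3 comparisons, since 0, 0 and 1 of 4 control arrays measured it above background. From MCD to M+Fc-GLP-1 before PH, where all 3 genes were above background on every array, the moves were -0.05 for Cyp2b9 minus Cyp2b10 (exact p 0.886), -0.55 for Cyp2b13 minus Cyp2b10 (exact p 0.114) and 0.5 for Cyp2b9 minus Cyp2b13 (exact p 0.343). In the 3 diet comparisons Cyp2b9 too was not well above background on some control arrays. Cyp2b9 had also passed the filter only through groups on the MCD diet, so these 3 moves are a description that supports nothing further. With normexp and quantile normalization, Cyp2b9 minus Cyp2b10 moved by -0.13 from C to MCD before PH, so the direction turned when background correction and normalization were changed together. It also turned in the authors' values from C+Fc-GLP-1 to M+Fc-GLP-1 before PH, and with other processing from MCD to M+Fc-GLP-1 before PH.

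**Figure D4:**
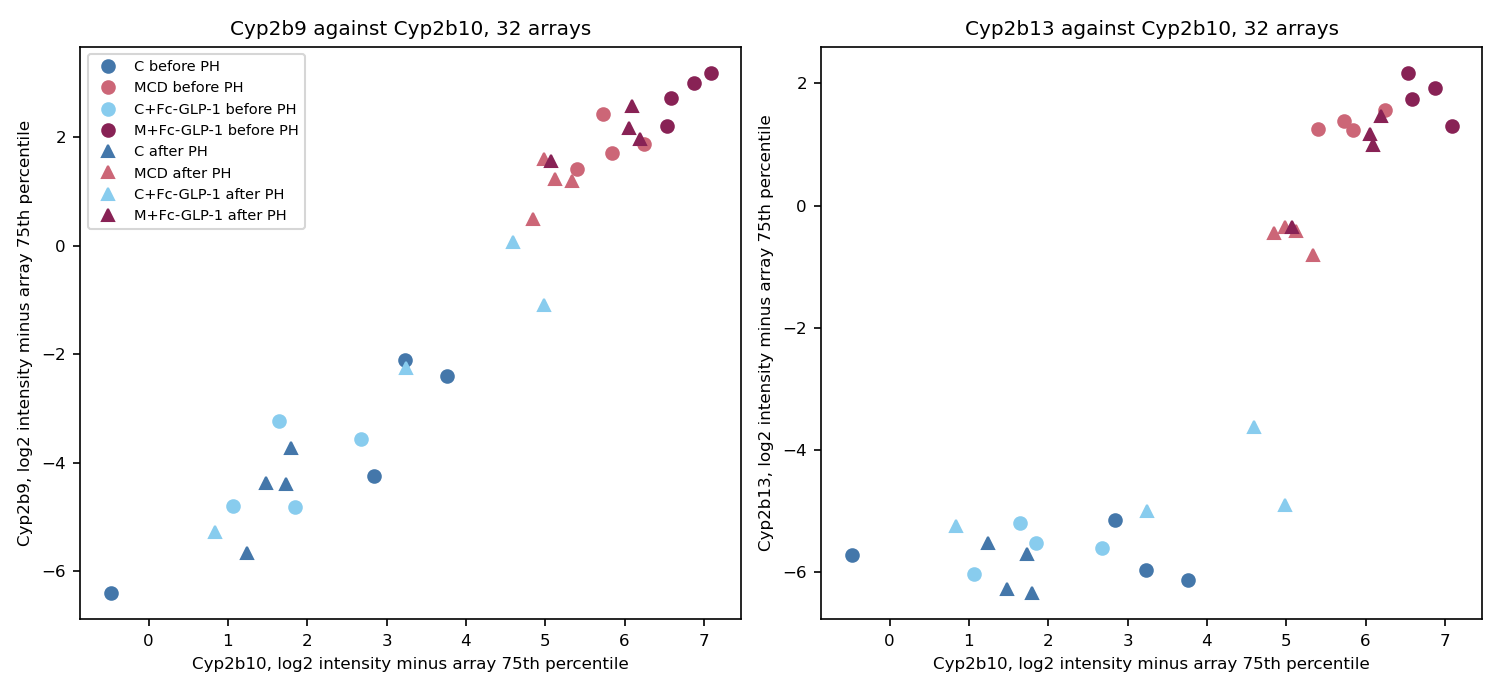
Cyp2b9 (left) and Cyp2b13 (right) against Cyp2b10 on 32 arrays, all in log2 intensity minus the array's 75th percentile, coloured by group, with circles before PH and triangles after. Cyp2b9 follows Cyp2b10 along a line (r of 0.975 over arrays that share groups), whereas Cyp2b13 lies at a low level and a high level with few arrays between them.

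The members' probes lie within chr7:26711522-27821829 of mm9, from Cyp2b10 to Cyp2a12. Of 8 other tested features there, 4 were higher and 1 lower in MCD against C mice before PH, 5 and 1 in M+Fc-GLP-1 against C+Fc-GLP-1 before PH, 3 and 0 in MCD against C after PH, and 5 and 0 in M+Fc-GLP-1 against C+Fc-GLP-1 after PH. Of all tested genes, 10.9% were higher and 15.4% lower in the first of these comparisons and 5.37% and 5.02% in the second. The shares were 6.07% and 6.1% in the third and 6.19% and 6.66% in the last. A_55_P2071906, between the Cyp2b10 and Cyp2b13 probes, rose by 3.49 in MCD mice before PH (adjusted p 0.000178). A_55_P2034531, next to the Cyp2b9 probe, was also higher (adjusted p 1.27e-05), with no fold given because its C mean of -6.14 lay below the dimmest signals called well above background on those arrays, at -5.32 to -4.15. TC1728321 rose by 1.61, while NP065022 fell by 0.86. A_55_P1997585, which shares 52 of 56 overlapping bases with a Cyp2a4 probe and may bind the same RNA, rose by 1.51. These 5 features were named after their values were seen. Of 6 other Cyp2 genes listed for the wider neighbourhood on chromosome 7, 4 were tested, of which Cyp2g1 alone has its probe inside that interval, and 0 were higher and 0 lower in MCD against C mice before PH by limma, with a median of -0.95. Cyp2g1, a P450 known from olfactory tissue, differed by 1.21 there (adjusted p 0.131) and rose by 2.03 in M+Fc-GLP-1 against C+Fc-GLP-1 mice before PH (adjusted p 0.025), where 1 of the 4 was higher, and 1 of the 4 was higher after PH. In MCD against C after PH it was 0 of 4.

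Outside the family, the 2 tested genes most like each member over the arrays were found by Pearson's r, as a description, with the other members left out of the ranking. For Cyp2b9 they were A_55_P2071906 (0.991) and A_55_P2034531 (0.92), and for Cyp2b13 A_55_P2034531 (0.952) and D630004K10Rik (0.932). Cyp2b10 had A_55_P2071906 (0.976) and D630004K10Rik (0.9). Cyp2a22 and Cyp2b13 lay closer to each other (0.956) than to any tested gene outside the family. Cyp2b9 and Cyp2b10 (0.975 with each other) both lay closer to A_55_P2071906. For Cyp2a4 they were A_55_P1997585 (0.957), the probe that shares its letters, and Aqp4 (0.926), a water channel, and for Cyp2a22 Aqp4 (0.947) and A_55_P1997585 (0.927). Cyp2a12 had Thap12 (0.78) and Cpox (0.769), an enzyme of haem synthesis, over 31 arrays. Aqp4 rose by 2.87 in MCD against C mice before PH (adjusted p 6.32e-08).

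Other sex-biased genes moved in both directions on the MCD diet. Of 12 tested genes of a list of 16 female-predominant liver genes, 9 were higher and 0 lower in MCD against C mice before PH, with a median of 2.02 where the median of all genes was -0.12. Cyp3a44, a P450, was at least 763-fold higher, on 4 of 4 MCD arrays and 0 of 4 C arrays above background. Atp6v0d2, a subunit of the proton pump, rose by 4.3. Of 16 tested male-predominant genes, 0 were higher and 14 lower, with a median of -2.85. Cyp4a12a, a fatty acid hydroxylase, fell by 6.06, Elovl3, a fatty acid elongase, by 6 and Cyp4a12b by 5.27. A gene dim on one diet could pass the filter on dim probes only through groups on the other diet. The counts and medians of both lists are thus partly fixed by the filter in all diet comparisons, and are a description. In M+Fc-GLP-1 against C+Fc-GLP-1 before PH, 10 of 12 female-predominant genes were higher (median 3) and 14 of 16 male-predominant genes lower (median -2.74), beside an all-gene median of 0.04. After PH, MCD against C gave 8 of 12 higher (median 2.05) and 9 of 16 lower (median -2.1), and M+Fc-GLP-1 against C+Fc-GLP-1 gave 8 of 12 higher (median 2.59) and 12 of 16 lower with 1 higher (median -3.66), beside all-gene medians of -0.03 and -0.01.

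Growth hormone signalling genes moved less evenly. Among them Cux2 is also counted in the female-predominant list and Bcl6 in the male-predominant list. Of 13 tested, 3 were higher and 5 lower in MCD against C mice before PH, with a median of -0.56. Cux2, a repressor of male-biased genes known from female liver, rose by 1.82, Esr1, the oestrogen receptor, by 1.18 and Prlr, the prolactin receptor, by 1.05. Bcl6, a repressor known from male liver, fell by 2.05 and Ghr, the growth hormone receptor, by 1.18. Under treatment before PH 1 was higher, Cux2 at 5.29, and 2 lower (median -0.45). After PH, 1 was higher and 2 lower in MCD against C (median -0.57), and 1 higher and 4 lower in M+Fc-GLP-1 against C+Fc-GLP-1 (median -0.49).

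Known targets of CAR and PXR did not move as a block. Of 16 tested, 5 were higher and 4 lower in MCD against C mice before PH, with a median of 0.29. Akr1b7, an aldo-keto reductase, rose by 4.32, Abcc4, an exporter of conjugates, by 3.03 and Abcb1a, a drug exporter, by 2.6. Ces2a, a carboxylesterase, fell by 3.15, Cyp2c37, a P450, by 1.72 and Abcc3, an exporter of bile acid conjugates, by 1.54. In the other diet comparisons 6 were higher and 2 lower (M+Fc-GLP-1 against C+Fc-GLP-1 before PH, median 0.2), 3 and 3 (MCD against C after PH, median -0.2) and 5 and 2 (M+Fc-GLP-1 against C+Fc-GLP-1 after PH, median 0.13). Of 15 partners and regulators of P450 enzymes, 5 were higher and 3 lower in MCD against C mice before PH, with a median of 0.17. Hmox1, which breaks down haem, rose by 1.3, Nfe2l2, a regulator of the response to oxidants, by 1.07 and Ahr, the dioxin receptor, by 1.06. Cyb5r3, a reductase of cytochrome b5, fell by 1.56, and the liver transcription factors Foxa2 and Cebpa by 1 and 0.99. The counts were 6 and 0 in M+Fc-GLP-1 against C+Fc-GLP-1 before PH (median 0.63), 4 and 1 in MCD against C after PH (median 0.31) and 4 and 2 in M+Fc-GLP-1 against C+Fc-GLP-1 after PH (median 0.7).

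**Figure D5:**
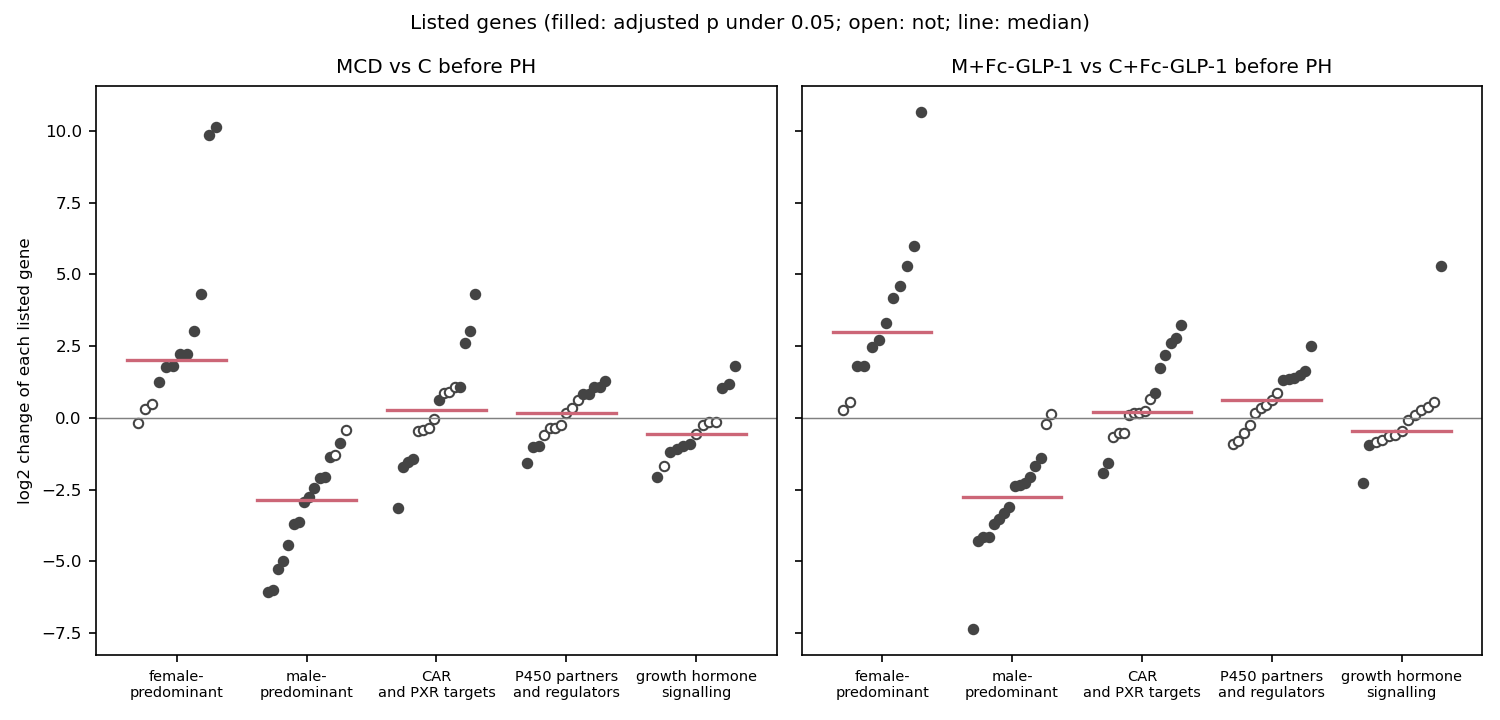
Log2 change of each tested gene of 5 lists in MCD against C (left) and M+Fc-GLP-1 against C+Fc-GLP-1 (right) before PH, filled where the adjusted p was under 0.05, with a line at the list's median. The medians in the left panel were 2.02 for female-predominant and -2.85 for male-predominant genes.

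Markers of other liver cells moved with the diet in untreated mice before PH. All 6 macrophage markers were higher in MCD against C mice, with a median of 1.69. Their summed level was 55.7, 103, 58.3 and 58.2 on C arrays and 323, 109, 238 and 223 on MCD arrays, with Cd5l the brightest probe. The sums of MCD mice were all above those of C mice. Of 5 neutrophil markers 3 were higher, with sums of 2.44, 2.87, 2.88 and 2.45 and then 16.9, 4.25, 15 and 21.8, with S100a9 the brightest probe, while Ngp was well above background on 16 of 32 arrays and Mpo on 15. MCD replicate 2 had the lowest sum of its group for both cell types, and on that array Cyp2b10 read 5.84 and Cyp2a22 1.93, within the range of the other MCD arrays. Cyp2b13 read 1.24 there, the lowest of its group and above every C array, and Cyp2a4 read 9.39, above the 8.98 to 9.04 of the others. In M+Fc-GLP-1 against C+Fc-GLP-1 before PH, where the same 5 members were higher, 0 of 6 macrophage markers were higher and 1 lower, with sums of 42.4 to 94.8 against 71.7 to 127, and 0 of 5 neutrophil markers were called by limma. After PH, 0 of 6 macrophage markers passed in MCD against C and 1 was lower in M+Fc-GLP-1 against C+Fc-GLP-1, and 3 of 5 neutrophil markers were higher in the first and 0 called in the second.

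Of 8 hepatocyte markers 2 were lower in MCD against C mice before PH, with a median of -0.54, and 0 were called in M+Fc-GLP-1 against C+Fc-GLP-1 before PH or MCD against C after PH, whereas 1 was higher in M+Fc-GLP-1 against C+Fc-GLP-1 after PH. Of the other lists in MCD against C before PH, 2 of 5 stellate cell markers were higher, 1 of 5 endothelial markers was higher, 1 of 4 B cell markers was lower, 1 of 4 T and NK cell markers was higher and 1 lower, and 0 of 5 biliary markers were called. Of 3 tested markers of kidney, gut or other tissues 1 was higher, with Fabp2 the brightest probe. Of those 3, 2 were higher in M+Fc-GLP-1 against C+Fc-GLP-1 before PH, with 1 of 5 endothelial markers. In MCD against C after PH 3 of 3 and 1 of 4 T and NK cell markers were higher. Among treated mice after PH 1 of 3 was higher with the diet, and 3 of 4 B cell, 1 of 4 T and NK cell and 1 of 5 endothelial markers were lower. The part of any of these cells in the members' changes was not tested.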

How the data were processed

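Liver RNA was measured on 32 1-colour arrays, 1 per liver sample, 4 in each of 8 groups, grouped by the labels. Per the file headers, Feature Extraction 10.7.3.1 wrote a background-corrected and detrended intensity for each spot, and the design annotation is on mm9. The authors deposited these intensity values and a matrix of normalized log2 values, whose column medians lay between 6.53 and 6.89 and whose 75th percentiles were about 8.57 before PH and 9.21 after, so they were compared only within those sets.

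Log2 intensity minus the 75th percentile of the array's 59305 non-control spots was used. Spots marked as outliers were set missing, a choice made after the members' values were seen because dropping the 426 probes concerned would remove Cyp2a12. Probes were named by RefSeq accession where possible (27656 of 55681 probes). A probe was kept when 1 or more groups had all 4 arrays well above background and every group had at least 2 values (29302 probes), and the brightest stood for each gene. limma 3.58.1 in R 4.3.3, with version 1.17.8 of the data.table package, was fitted to all 8 groups, with two-sided moderated tests and Benjamini-Hochberg adjustment over 21290 genes at a threshold of 0.05. Fc-GLP-1 groups are named after the study's methods and the agent their source labels give before PH.

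The members and the gene lists were chosen with earlier results of these data known. The genes named are all members, up to 3 genes per list and direction among those past the threshold in MCD against C before PH by size of change, and the 2 genes outside the family most like each member. Some genes that met this rule are not reported here. Other features named were chosen after their values were seen. The steps were tested on simulated data. Alternatives were normexp (offset 50) with quantile normalization, array median centring, a percentile over probes above background on all arrays, dim probes kept, the authors' values, averaging the probes of a gene, only the arrays compared, the replicate number as a block, each array left out in turn and, added after seeing the data, probes with an outlier spot left out. Replicate numbers were not taken to pair the arrays: residual correlations between arrays of the same number ran from -0.19 to 0.52. The highest was in C+Fc-GLP-1 against C after PH, where their mean was 0.18, beside -0.06 for arrays of different numbers. Promoters and their positions are from RefSeq on GRCm38.p6. The study's other assays were not used.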

Additional observations from a re-analysis of the deposited data

Results flagged for a closer look

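Among 47 sets of a member and a group of 4 arrays (3 usable arrays for Cyp2a12 in M+Fc-GLP-1 after PH were not examined), 3 held an array far from the other 3 of its group, by Dixon's test of the gap to the nearest value against the group's range. Chance gives this in about 1 in 20 groups. Cyp2a4 read 9.39 in replicate 2 of MCD before PH, the highest of the group, and 7.99 in replicate 1 of M+Fc-GLP-1 before PH, the lowest. Cyp2b10 read 5.07 in replicate 4 of M+Fc-GLP-1 after PH, the lowest, and on that array marker sums, with 1 as the 75th percentile, were 61.3 for biliary cells (4.78 to 5.92 on the other 3), 11.6 for stellate cells (3.13 to 5.71) and 3340 for hepatocytes (4730 to 5030). The cause was not tested.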

How the results depend on the processing

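Among changes of single members and other settings, 406 values kept their direction and side of the threshold, 10 lost their call, 12 gained one and 3 reversed, and with arrays left out the numbers were 426, 16, 4 and 2. The number of members changed in the diet comparisons was 5 as reported, and 6 with normexp and 6 with the authors' values in MCD against C before PH and 4 with only the arrays compared in M+Fc-GLP-1 against C+Fc-GLP-1 after PH. Leaving out an array gave 5 to 5 in MCD against C before and after PH, 5 to 6 in M+Fc-GLP-1 against C+Fc-GLP-1 before PH and 4 to 5 after PH. In C+Fc-GLP-1 against C before PH it was 1, and 0 with array median centring and with only the arrays compared (0 to 1 with an array left out). In M+Fc-GLP-1 against MCD before PH it was 0, and 3 with normexp and quantile normalization, 3 with the authors' values and 1 with only the arrays compared (0 to 0). In C+Fc-GLP-1 against C after PH it was 1, and 0 with normexp, array median centring, the authors' values, no filter, only the arrays compared and the replicate block (0 to 3). In M+Fc-GLP-1 against MCD after PH it was 1, and 0 with only the arrays compared (0 to 1). With normexp it was 1 in C after against before PH (0 to 1), 2 in M+Fc-GLP-1 after against before PH (0 to 0) and 1 for diet by Fc-GLP-1 before PH (0 to 0), each 0 as reported. MCD after against before PH ran from 1 to 2. Values that reversed were Cyp2a4 in M+Fc-GLP-1 against MCD before PH (0.05 without M+Fc-GLP-1 replicate 1, down to -0.38 without other arrays), Cyp2a12 in C after against before PH (-0.06 without C replicate 1 before PH, up to 0.64) and Cyp2a22 for diet by Fc-GLP-1 before PH (-0.87 with normexp, -0.34 with array median centring, -0.94 with the authors' values). Cyp2b9 minus Cyp2b10 reversed from C to MCD before PH (-0.13 with normexp, -0.3 with the authors' values), from C+Fc-GLP-1 to M+Fc-GLP-1 before PH (-0.11, authors' values) and from MCD to M+Fc-GLP-1 before PH (0.14 and 0.15). Cyp2b13 minus Cyp2b10 reversed from C+Fc-GLP-1 to M+Fc-GLP-1 before PH (-0.87 and -1.03), and Cyp2b9 minus Cyp2b13 there (0.91 and 0.92) and after PH (0.22 and 0.05), where Cyp2b13 was near background in the controls. The cause was not tested. Leaving out probes with an outlier spot, chosen after seeing the data, removed Cyp2a12 from the test and changed no count of members. A slide effect within the fit could not be estimated, differences that need Cyp2a5 had no probe (12 of 24 tests were run), and the authors' values, normalized apart, were not used for after against before PH. Signal over background limits Cyp2b13, Cyp2a22 and Cyp2b9, which were well above background on 17, 20 and 25 of 32 arrays.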
